A study of Sus scrofa with 19 samples.

Results

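The genes described here are 8 that carry the LPS signal from the cell surface into the cell: the receptor complex TLR4, LY96 and CD14, the neighbouring receptor TLR2, the adaptors MYD88 and TICAM2, the kinase IRAK4 and the inhibitor TNIP1. They were taken as the probe sets that have one of these symbols, and no other, in the array annotation. This gave 9 probe sets of the 27558 on the array, 1 for each gene except TLR2, which has 2, and all 9 were among the 20668 tested. Gene IDs are those of the annotation. Where a single symbol differed from the RefSeq symbol of the same gene ID, the RefSeq symbol replaced it before probe sets were taken. No position in the genome is given because no source used here names the genome build of the probes.

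LPS, lipopolysaccharide, is the outer membrane component of Gram-negative bacteria. CD14 binds it and hands it to LY96, also called MD-2, which sits on TLR4 and brings the receptors together, while TLR2 responds mainly to bacterial lipoproteins. MYD88 recruits the kinase IRAK4 and starts the NF-kB response from the plasma membrane, TICAM2, also called TRAM, links internalised TLR4 to the interferon branch, and TNIP1, also called ABIN-1, restrains NF-kB. In an adrenal gland they are at work in resident macrophages and vessels as well as in hormone-producing cells, and cytokines made there can drive cortisol release.

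Whole adrenal glands of 19 male piglets, 1 from each sow, were measured on Affymetrix arrays. The sows ate a fish oil or a microalgae diet, both sources of omega-3 fatty acids, or a control diet from gestation day 75 and received LPS or saline on gestation day 112. Fish oil groups held 4 piglets after maternal LPS (piglets 10, 19, 20 and 24 of the labels) and 4 after maternal saline (9, 11, 13 and 18). Microalgae groups held 2 after LPS (7 and 23) and 3 after saline (12, 15 and 22), and control-diet groups held 3 after LPS (6, 16 and 17) and 3 after saline (8, 14 and 21). All 19 piglets were weaned at 21 days and received LPS themselves at 28 days of age, 2 hours before the glands were taken, so no group shows a gland without a recent LPS challenge. A whole gland pools cortex, medulla, capsule, vessels and blood.

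Values are the deposited log2 signals, and array medians lay between 4.38 and 4.52. The adrenal label was borne out by CYP17A1 of the cortex at 12.36 ± 0.194 and PNMT of the medulla at 7.14 ± 0.754 log2 (SD, n = 19). Piglets 24 and 6, both offspring of LPS-treated sows, had the least spread across probe sets (SD 1.76 and 1.81 log2, where the widest array had 1.97). The microalgae arrays after maternal LPS (piglets 7 and 23) had less spread (1.86 and 1.88) than those after saline (1.93, 1.89 and 1.97). Their medians were higher (4.52 and 4.52, against 4.38, 4.49 and 4.38). In microalgae offspring these array properties and the maternal challenge thus cannot be told apart. Levels of different probe sets cannot be compared with each other, because each probe set binds with its own strength. The number of arrays limits the precision: the model's standard error (SE) of the maternal LPS difference was 0.0898 to 0.172 log2 for the 9 probe sets.

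For maternal LPS, the largest differences as the mean over the diets belonged to the intracellular relay. Within single diets the order was another: LY96 had the largest difference of the 9 in control offspring (0.62), and in microalgae its difference (-0.70) exceeded those of MYD88 (-0.64) and TICAM2 (-0.51). Over the 3 diets, the difference between offspring of LPS-treated and saline-treated sows was -0.48 ± 0.127 log2 for the kinase IRAK4, -0.41 ± 0.155 for the adaptor TICAM2 and -0.37 ± 0.112 for the adaptor MYD88 (SE, 9 and 10 piglets). These correspond to linear folds of 0.717, 0.752 and 0.772. The receptor complex was at -0.03 ± 0.172 (TLR4), -0.20 ± 0.144 (LY96) and 0.11 ± 0.137 (CD14), and the inhibitor TNIP1 at 0.06 ± 0.0898. None of the 9 passed the threshold of 0.05 after adjustment over all 20668 probe sets, so each of these is a difference that misses the threshold of limma's test.

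Read against the array as a whole, 3 of the 9 probe sets were lower at an unadjusted p under 0.05 in limma, where 3.59% of all probe sets were. None was higher, where 3.37% were. After adjustment 0 of the 9 passed, with adjusted p from 0.413 to 0.969, where 2 probe sets of the whole array did (0.00968%). The median difference of the 9 was -0.16, beside 0.0070 over all tested. In all 3 diets at once 4 probe sets were lower by group means, those of MYD88, IRAK4 and TICAM2 and TLR2 probe set 15323510, a pattern that 13.4% of all probe sets had. The genes were chosen with earlier results of these data known. IRAK4, MYD88 and TICAM2 also varied together over the piglets (r from 0.578 to 0.735), so they are not separate events. The shares here and below are thus a description and not a test of the set.

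**Figure D1:**
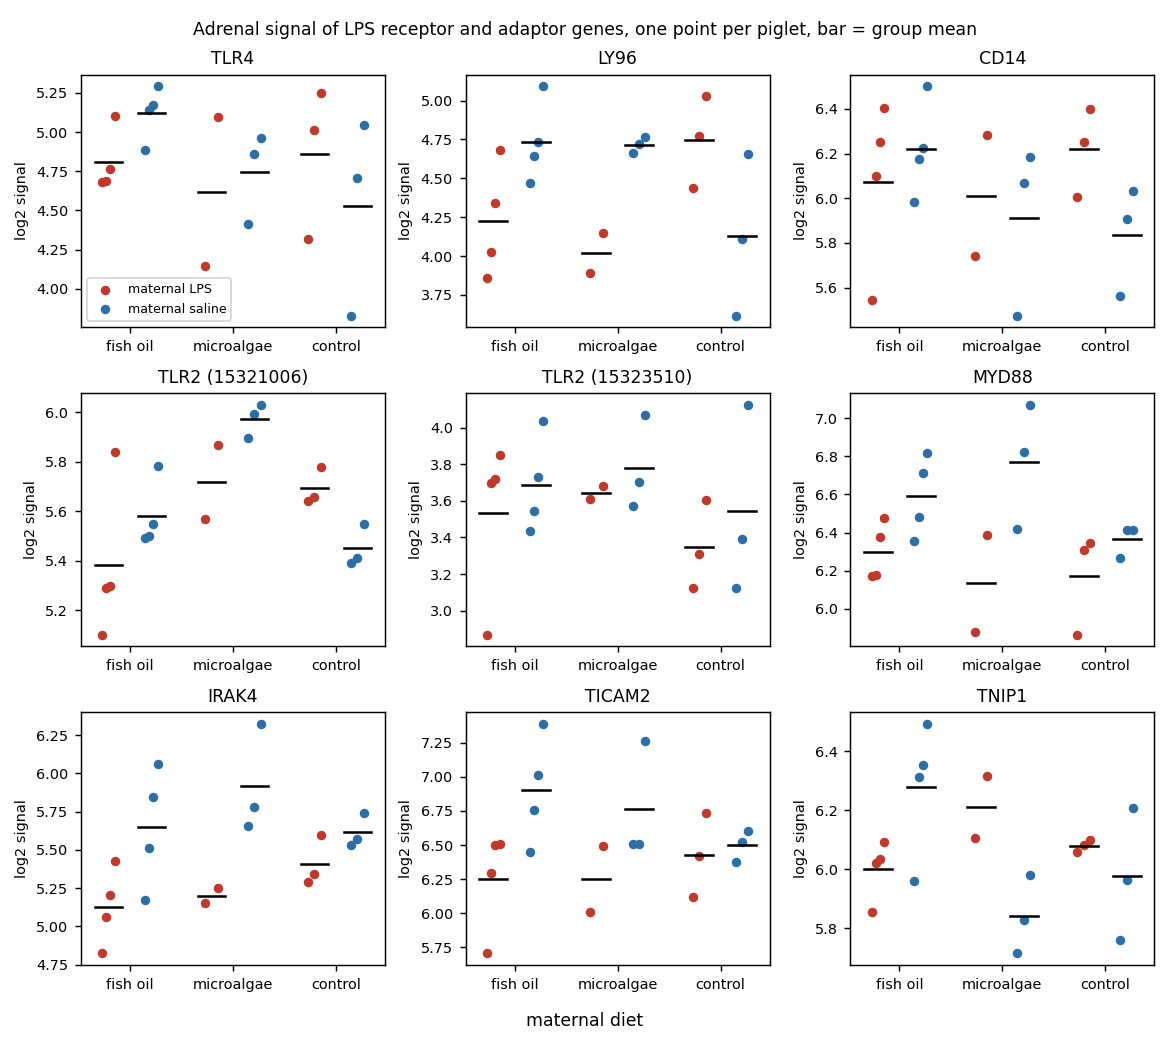
Deposited log2 signal of the 9 probe sets in each of the 19 piglets, by maternal diet (fish oil, microalgae, control), with offspring of LPS-treated sows in red to the left of offspring of saline-treated sows in blue and group means as black bars. The vertical axes differ between panels and do not start at 0. IRAK4 and MYD88 lie lower after maternal LPS in each diet, and LY96 is lower in both omega-3 diets (means 4.23 and 4.02 after LPS, 4.74 and 4.72 after saline) but higher in control offspring (means 4.75 after LPS and 4.13 after saline).

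IRAK4, the first kinase activated behind MYD88, showed the largest maternal LPS difference of the 9. In fish oil offspring it read 4.82, 5.43, 5.20 and 5.06 log2 after maternal LPS, against 5.17, 5.51, 6.06 and 5.84 after saline. Microalgae offspring had 5.15 and 5.25 after LPS, against 6.32, 5.78 and 5.65 after saline. Control offspring had 5.34, 5.60 and 5.29 after LPS, against 5.53, 5.57 and 5.74 after saline. The microalgae groups did not overlap, as for 14.7% of all probe sets in this direction with so few piglets, while in the other diets 1 or more piglets lay inside the range of the other challenge. All 9 offspring of LPS-treated sows read below the saline mean of their own diet, and 6 of them read below every saline piglet of that diet.

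For IRAK4 the limma p over the diets was 0.00139 and the adjusted p 0.413. An exact two-sided permutation test, with the challenge labels exchanged within each diet (14000 relabellings, smallest possible p 7.14e-05), gave 0.00193. The 95% confidence interval of the difference ran between -0.75 and -0.21 log2. By diet the difference was -0.52 ± 0.19 in fish oil (limma p 0.0140), -0.72 ± 0.246 in microalgae (0.00911) and -0.20 ± 0.22 in control offspring (0.368), with adjusted p of 0.911, 0.300 and 1.0. The exact permutation test within these diets gave 0.0857, 0.1 and 0.3, where the smallest p it allows is 0.0286, 0.1 and 0.1. The differences between diets in this effect were -0.32 ± 0.291 for fish oil against control and -0.52 ± 0.33 for microalgae against control, and neither was past p 0.05. Leaving out any 1 piglet kept the value over the diets between -0.53 and -0.41. The fish oil difference missed p 0.05 without piglet 10 (-0.42, p 0.0541) or 13 (-0.38, p 0.0641), and the microalgae difference without piglet 7 (-0.67, p 0.0514) or 12 (-0.52, p 0.0536). Beside IRAK4 in the RefSeq annotation of Sscrofa11.1 lie TWF1, whose probe set had a maternal LPS difference of -0.38 ± 0.189 (p 0.0576) and r = 0.431 with IRAK4 over the arrays, and PUS7L (-0.19 ± 0.158, r = 0.43).

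MYD88, the adaptor shared by TLR4, TLR2 and most other Toll-like receptors, followed the same order of challenges. It read 6.48, 6.17, 6.38 and 6.18 log2 in fish oil offspring after LPS, against 6.36, 6.71, 6.48 and 6.81 after saline. With microalgae it read 6.39 and 5.88 after LPS, against 7.07, 6.42 and 6.82 after saline. With the control diet it read 5.87, 6.35 and 6.31 after LPS, against 6.26, 6.42 and 6.42 after saline. Each of the 9 LPS offspring lay below the saline mean of its diet, but the lowest saline piglet of fish oil and of control lay among the LPS piglets. The microalgae groups did not overlap, as for 14.7% of all probe sets in this direction.

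Over the diets the MYD88 difference had a limma p of 0.0039, an adjusted p of 0.51 and an exact permutation p of 0.00671. Within microalgae, fish oil and control the exact permutation test gave 0.2, 0.114 and 0.3, where the smallest p it allows is 0.1, 0.0286 and 0.1. The MYD88 difference was -0.64 ± 0.218 in microalgae (limma p 0.00915, adjusted 0.300), -0.29 ± 0.169 in fish oil and -0.19 ± 0.195 in control offspring. Piglet 23 weighed on it: without that piglet the value was -0.29 over the diets (p 0.0295) and -0.38 in microalgae (p 0.168). In the RefSeq annotation of Sscrofa11.1, MYD88 overlaps ACAA1, a peroxisomal thiolase. The probe set of ACAA1 had a maternal LPS difference of 0.09 ± 0.128 and did not follow MYD88 over the 19 arrays (r = -0.03).

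TICAM2, the bridge between TLR4 and the interferon-inducing adaptor, had its lowest single value, 5.70, in a fish oil piglet after maternal LPS. Fish oil offspring had 6.50, 6.51, 5.70 and 6.29 log2 after LPS, against 6.45, 7.01, 6.76 and 7.39 after saline. Microalgae offspring had 6.49 and 6.01 after LPS, against 7.26, 6.51 and 6.51 after saline. For control offspring TICAM2 stood at 6.12, 6.73 and 6.42 after LPS, against 6.60, 6.38 and 6.52 after saline. The control groups interleave, and the fish oil groups overlap through 1 saline piglet at 6.45. In microalgae the groups do not overlap, as for 14.7% of all probe sets in this direction, with values that nearly touch. Of the 9 LPS offspring 8 were below the saline mean of their diet.

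The TICAM2 difference was -0.65 ± 0.233 in fish oil (limma p 0.0123, adjusted 0.872), -0.51 ± 0.301 in microalgae (0.108) and -0.08 ± 0.269 in control offspring (0.782). Over the diets limma gave p 0.0165 and an adjusted p of 0.654, and the exact permutation test gave 0.0201. Within fish oil, microalgae and control the exact permutation test gave 0.0857, 0.4 and 0.8, where the smallest p it allows is 0.0286, 0.1 and 0.1. The difference between diets was not past p 0.05 (-0.57 ± 0.356 for fish oil against control, p 0.124). Without piglet 23 the value over the diets had p 0.074, and the fish oil difference missed p 0.05 without piglet 18 (-0.49, p 0.0557) or 20 (-0.47, p 0.0576). The neighbouring gene TMED7 had its own probe set at -0.07 ± 0.0867 (r = 0.103 with TICAM2).

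TNIP1, which binds A20 and dampens NF-kB, had maternal LPS differences of opposite sign in the omega-3 diets. It read 6.09, 6.04, 5.85 and 6.02 log2 in fish oil offspring after LPS, against 6.35, 6.49, 6.31 and 5.96 after saline. In microalgae offspring it read 6.32 and 6.10 after LPS, against 5.83, 5.98 and 5.71 after saline, and in control offspring 6.10, 6.06 and 6.08 after LPS, against 6.21, 5.96 and 5.76 after saline. Microalgae LPS piglets were above all microalgae saline piglets, as for 16.9% of all probe sets, whereas in fish oil 3 of 4 saline piglets were above all LPS piglets. Within microalgae the exact permutation test gave p 0.1, the smallest it allows there. The TNIP1 difference was 0.37 ± 0.174 in microalgae (limma p 0.048, adjusted 0.428), -0.28 ± 0.135 in fish oil (p 0.0539) and 0.10 ± 0.156 in control. The microalgae value kept a p under 0.05 in 13 of 29 other fits, 10 with another setting and 19 without 1 piglet.

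**Figure D2:**
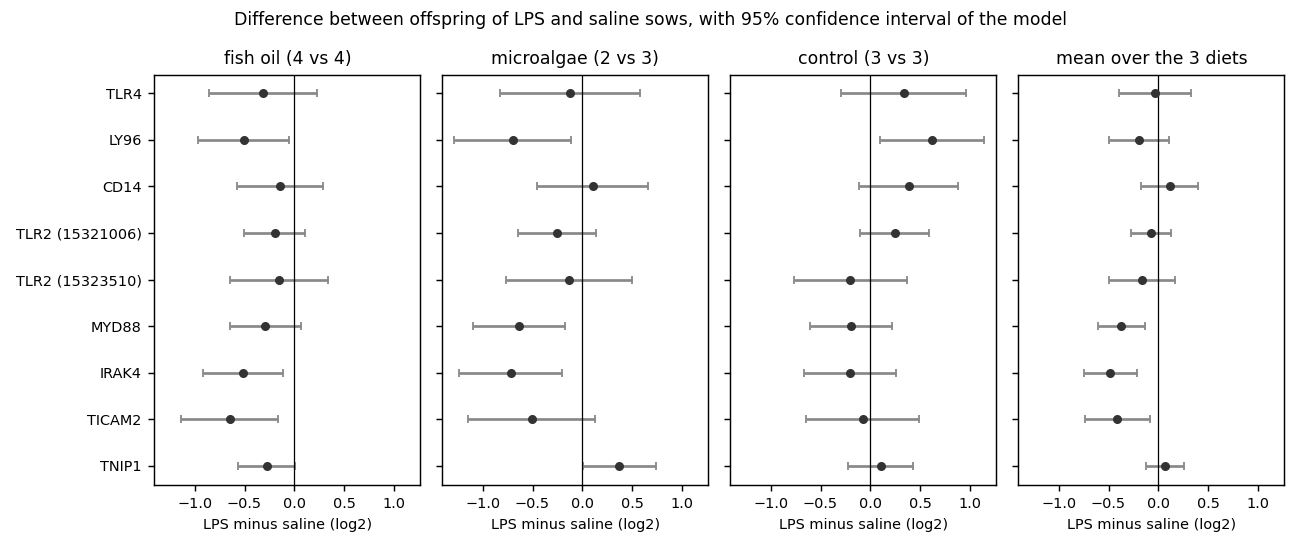
Difference in log2 signal, offspring of LPS-treated minus saline-treated sows, for the 9 probe sets within each maternal diet and as the mean over the 3 diets; points are limma estimates and bars their 95% confidence intervals, not adjusted for the number of probe sets. IRAK4, MYD88 and TICAM2 lie left of 0 in all panels, and LY96 lies right of 0 in control (0.62) and left of it in fish oil (-0.51) and microalgae (-0.70).

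LY96, the LPS-binding subunit of the TLR4 complex, had opposite maternal LPS differences with and without omega-3 in the sow's diet. Fish oil offspring had 4.68, 4.34, 3.86 and 4.03 log2 after LPS, against 4.47, 4.64, 4.73 and 5.09 after saline. Microalgae offspring had 3.89 and 4.14 after LPS, against 4.76, 4.66 and 4.72 after saline. Control offspring had 4.44, 5.03 and 4.77 after LPS, against 4.66, 4.11 and 3.62 after saline. Microalgae groups did not overlap, with LPS lower, as for 14.7% of all probe sets. In fish oil 1 LPS piglet at 4.68 lay within the saline range, and in control 1 saline piglet at 4.66 lay within the LPS range.

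By group mean LY96 had 2 levels. Control after LPS (4.75 ± 0.298), fish oil after saline (4.74 ± 0.262) and microalgae after saline (4.72 ± 0.0508) were the upper 3. Fish oil after LPS (4.23 ± 0.365), control after saline (4.13 ± 0.521) and microalgae after LPS (4.02 ± 0.178; SD, n = 2 to 4) were the lower 3. Between these sets the step was 0.49 log2, more than the SD of either group beside it, whereas every other step between neighbours was under the larger SD. It was less than the SD of control after saline (0.521). Single piglets crossed it: piglets 8 (4.66) and 10 (4.68) of the lower set read above piglets 6 (4.44) and 9 (4.47) of the upper set. With opposite signs by diet, the difference over the diets was -0.20 ± 0.144 (p 0.192).

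The maternal LPS difference of LY96 was -0.51 ± 0.216 in fish oil (limma p 0.0304), -0.70 ± 0.279 in microalgae (0.0226) and 0.62 ± 0.25 in control offspring (0.0235), with adjusted p of 0.999, 0.362 and 1.0. Tested directly, the effect in fish oil differed from that in control by -1.13 ± 0.33 log2 (95% confidence interval -1.82 to -0.43, p 0.00316), and the effect in microalgae by -1.32 ± 0.374 (-2.10 to -0.53, p 0.00253). Adjusted over all probe sets these interactions had p 1.0 and 0.858 in limma. Both interactions use the same 6 control piglets, so they are not independent of each other. Negative interactions with an unadjusted p under 0.05 in both diets were found for 0.334% of all probe sets.

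Exchanging diet labels within each maternal challenge, an exact test added after the data were seen, gave p 0.0139 for fish oil (1225 relabellings, smallest possible p 0.000816) and p 0.015 for microalgae (200 relabellings, smallest possible 0.005). Its null is that diet has no effect after either challenge, which is not the null of limma's interaction, an equal maternal LPS difference in both diets. Within single diets the exact permutation test gave 0.0857 in fish oil, 0.1 in microalgae and 0.2 in control, where the smallest p it allows is 0.0286, 0.1 and 0.1. No single piglet ended the unadjusted p under 0.05 of either interaction, which ran from -1.39 to -0.87 for fish oil and from -1.58 to -1.06 for microalgae. The effects within diets rested on fewer piglets. The control effect was at 0.36 (p 0.166) without piglet 21 and missed p 0.05 without piglet 16 or 17 too; the fish oil effect missed it without piglet 18, 20 or 24, and the microalgae effect without piglet 7.

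Macrophage markers are given here beside LY96. Of 18 listed markers 15 were measured, and after maternal LPS 13 of 15 were lower in fish oil (median -0.23), 13 of 15 lower in microalgae (-0.26) and 14 of 15 higher in control offspring (0.34). At an unadjusted limma p under 0.05 there was 1 of 15 in fish oil (SIGLEC1, lower), 1 higher and 1 lower in microalgae (ITGAM and C1QC) and 1 in control (MRC1, higher), and 0 passed after adjustment. The summed score, the mean of the markers relative to their own averages, ranged in fish oil offspring from -0.23 to 0.23 after LPS and from -0.20 to 0.57 after saline. It ranged in microalgae offspring from -0.21 to -0.16 after LPS and from -0.35 to 0.31 after saline, and in control offspring from 0.09 to 0.11 after LPS and from -0.34 to -0.08 after saline. The microalgae LPS scores thus lay inside the saline range of that diet, and the fish oil ranges overlapped. In control the ranges did not overlap, with higher scores after LPS. The mean signals of the markers ran from 3.23 (AIF1, at the level of the filter on low signals) to 7.45 log2 (C1QB). In whole glands fewer cells of a type and less RNA per cell cannot be told apart.

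With the macrophage score as a covariate the LY96 interactions were -0.85 (p 0.0347) for fish oil and -1.05 (p 0.0187) for microalgae, and the effects within diets were -0.40 (p 0.0848) in fish oil, -0.60 (p 0.0435) in microalgae and 0.45 (p 0.114) in control. With neutrophil and monocyte markers as covariate instead, the interactions were -1.03 (p 0.0117) and -1.24 (p 0.00648). For IRAK4, MYD88 and TICAM2 the macrophage score left the differences over the diets at -0.48, -0.37 and -0.40. Over the 19 piglets LY96 and the score had r = 0.573 and rho = 0.454, with permutation p of 0.0108 and 0.0531. Adjusted over the 27 relations of 3 leucocyte scores with the 9 probe sets they were 0.146 and 0.716, so the relation did not pass. On values less their group means r was 0.37.

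**Figure D3:**
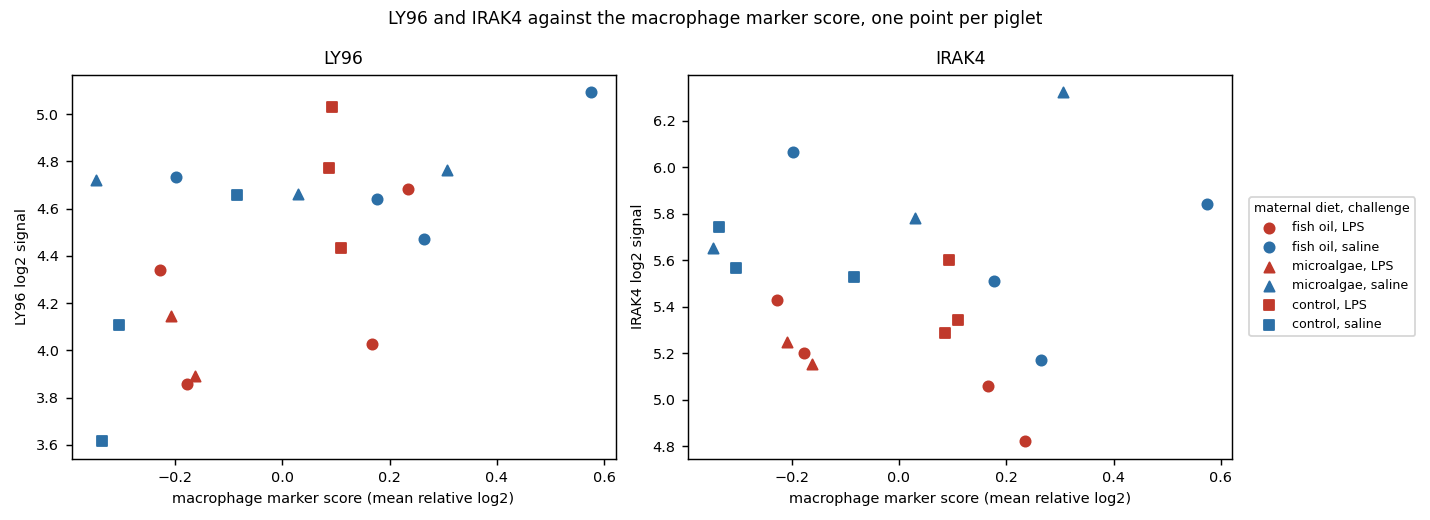
Log2 signal of LY96 (left) and IRAK4 (right) against the macrophage marker score of the same piglet, by maternal diet (symbol) and maternal challenge (LPS red, saline blue). LY96 has r = 0.573 with the score (permutation test, adjusted p 0.146; 0.37 on values less their group means) and IRAK4 r = 0.0138.

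TLR4 itself, the signalling receptor for LPS, had signals of 4.69, 4.68, 4.76 and 5.10 log2 in fish oil offspring after LPS, against 4.88, 5.14, 5.17 and 5.29 after saline. Microalgae offspring had 4.15 and 5.10 after LPS, against 4.96, 4.86 and 4.41 after saline, and control offspring had 4.32, 5.25 and 5.01 after LPS, against 4.70, 5.04 and 3.83 after saline. Ranges overlapped in each diet. The maternal LPS difference was -0.31 ± 0.259 in fish oil, -0.12 ± 0.334 in microalgae and 0.33 ± 0.299 in control (limma p 0.241, 0.716 and 0.278), the same signs as LY96. Its sign over the diets was not stable, since it turned positive without piglet 6, 7, 12 or 14. In control it turned to -0.01 without piglet 21.

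CD14, the protein that passes LPS to the complex, was at 6.25, 6.40, 6.10 and 5.54 log2 in fish oil offspring after LPS, against 6.18, 5.98, 6.23 and 6.50 after saline. In microalgae offspring it was at 5.74 and 6.28 after LPS, against 6.18, 5.47 and 6.07 after saline, and in control offspring at 6.01, 6.40 and 6.25 after LPS, against 5.56, 5.91 and 6.03 after saline. Ranges overlapped in every diet, and the limma p within the diets was 0.122 or more. Piglet 24, one of the arrays of least spread, gave the lowest value after LPS, 5.54, and the fish oil difference of -0.15 turned to 0.03 without it. With the array spread as covariate the difference over the diets was 0.25 (p 0.0293), beside 0.11 (p 0.418) without it.

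Both TLR2 probe sets are annotated to the same gene, the receptor for bacterial lipoproteins, yet they did not follow each other over the piglets (r = 0.215, rho = 0.0386). Probe set 15321006 read 5.10, 5.30, 5.84 and 5.29 log2 in fish oil offspring after LPS, against 5.49, 5.50, 5.55 and 5.78 after saline. It read 5.57 and 5.87 in microalgae offspring after LPS, against 5.90, 6.03 and 5.99 after saline, and 5.64, 5.66 and 5.78 in control offspring after LPS, against 5.55, 5.39 and 5.41 after saline. Challenge groups did not overlap in microalgae, where LPS was lower (-0.25 ± 0.185), nor in control, where LPS was higher (0.24 ± 0.166). Of all probe sets 14.7% and 3.06% were apart in those directions, and the limma p was 0.188 and 0.160. The difference in effect against control was -0.44 ± 0.219 for fish oil (p 0.0594) and -0.50 ± 0.249 for microalgae (p 0.0615).

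Probe set 15323510 lay between 2.87 and 4.12 log2, close to the filter on low signals at 3.23, and 3 piglets read below it. Its maternal LPS difference was -0.15 ± 0.234 in fish oil, -0.14 ± 0.302 in microalgae and -0.20 ± 0.27 in control offspring, each with a p over 0.4. Its low signal limits the counts it enters.

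Within single diets, and by an unadjusted limma p under 0.05, fish oil had 3 of 9 probe sets lower (LY96, IRAK4, TICAM2; background 2.88%) and microalgae 3 lower (LY96, MYD88, IRAK4; 5.81%) and 1 higher (TNIP1; 5.86%). Control had 1 of 9 higher (LY96; 0.982%). By group means all 9 were lower in fish oil (median -0.29), 7 of 9 in microalgae (-0.25) and 4 of 9 in control offspring (0.10), beside medians over all probe sets of 0.0051, 0.03 and 0.0016. For TLR4, LY96 and TLR2 probe set 15321006 the difference was negative in both omega-3 diets and positive in control, a pattern of 11.4% of all probe sets. Of the 9 interactions 8 were negative for fish oil (median -0.44) and 7 for microalgae (-0.45), beside medians over all probe sets of -0.0019 and 0.018. Only LY96 had a p under 0.05 in either (background 1.6% and 2.54%). Both interactions use the same control piglets and some of the probe sets vary together, so these signs are not separate agreements. After adjustment 0 of the 9 passed in any diet or interaction.

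Maternal diet, as the mean over both challenges, had 1 of the 9 probe sets at an unadjusted limma p under 0.05 and 0 after adjustment. TLR2 probe set 15321006 was lower in fish oil than in microalgae offspring by -0.36 ± 0.117 log2 (8 and 5 piglets, limma p 0.00614, adjusted 1.0; 1 of 9 lower, background 1.3%). Fish oil offspring had a lowest, median and highest value of 5.10, 5.50 and 5.84, against 5.57, 5.90 and 6.03 in microalgae offspring and 5.39, 5.60 and 5.78 in control offspring. Microalgae was above control by 0.27 ± 0.124 (p 0.041; 1 of 9 higher, background 0.856%), which missed p 0.05 without any 1 of piglets 6, 14, 15, 16, 21, 22 and 23. The fish oil to microalgae difference stayed under p 0.05 in all 30 other fits, between -0.44 and -0.29. The other TLR2 probe set had -0.10 ± 0.191 and 0.27 ± 0.202 in these comparisons (p 0.598 and 0.205). Fish oil against control had 0 of 9 at p under 0.05 in limma (background 2.69%).

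Split by maternal challenge, the diet comparisons share the control groups with the comparisons above. After maternal saline all 9 probe sets were higher in fish oil than in control offspring (median 0.30, beside 0.0047 over all probe sets), and 2 of them at p under 0.05, TLR4 (0.60 ± 0.279, p 0.0468) and LY96 (0.61 ± 0.233, p 0.018), against a background of 1.13%. In microalgae offspring after saline, LY96 (0.59 ± 0.25, p 0.0299) and TLR2 probe set 15321006 (0.52 ± 0.166, p 0.00563) were higher than in control (2 of 9, background 1.27%). These 2 and MYD88 (0.41 ± 0.195, p 0.0522) were higher with no overlap (3.59% of all). After maternal LPS, LY96 was lower than in control with fish oil (-0.52 ± 0.233, p 0.0396; 1 of 9, background 1.73%) and with microalgae (-0.73 ± 0.279, p 0.0181; 1 of 9, background 1.59%). All had an adjusted p of 1.0 in limma. Piglet 21, a control piglet after saline, weighed on the saline values, in fits added after the data were seen: without it TLR4 was at 0.25 (p 0.372) and LY96 at 0.35 (p 0.157) with fish oil, and LY96 at 0.33 (p 0.202) with microalgae. TLR4 also missed p 0.05 without any 1 of 9 other piglets, and LY96 without piglet 18 (fish oil, p 0.0612) or without piglet 12, 14 or 22 (microalgae, p up to 0.0657). After LPS, LY96 missed it with fish oil without piglet 16, 17, 20 or 24 (p up to 0.17) and with microalgae without piglet 7 or 16 (p up to 0.114). The TLR2 difference kept a p under 0.05 in all 29 other fits (0.49 to 0.57 without 1 piglet). Macrophage markers were higher in 15 of 15 cases with fish oil after saline (median 0.42) and in 15 of 15 with microalgae after saline (0.21). After maternal LPS they were lower in 8 of 15 with fish oil (-0.07) and in 11 of 15 with microalgae (-0.43). Markers of fibroblasts and capsule differed as well. With fish oil after saline 9 of 9 were lower than in control (median -0.997), 5 of them at an unadjusted limma p under 0.05. With microalgae after saline 5 of 9 were lower (-0.07). After maternal LPS 8 of 9 were lower with fish oil (-0.55) and 6 of 9 with microalgae (-0.15). No fit used these markers as covariate. With the macrophage score as covariate the saline values were 0.41 (p 0.24) for TLR4 and 0.38 (p 0.18) for LY96 with fish oil and 0.47 (p 0.0836) for LY96 with microalgae, and the LPS values of LY96 were -0.47 (p 0.0556) and -0.58 (p 0.0581).

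Across piglets TICAM2 varied with MYD88, IRAK4 and LY96. Of 36 pairs among the 9 probe sets, 28 had a positive r, and 3 passed 0.05 after Benjamini-Hochberg adjustment over the 36 pairs (permutation test, 100000 resamples, n = 19). TICAM2 was in all 3 pairs, with MYD88 (r = 0.735, adjusted p 0.0184), IRAK4 (0.637, 0.0438) and LY96 (0.633, 0.0438). By rank only TICAM2 with IRAK4 passed (rho = 0.717, adjusted p 0.0331), while MYD88 had rho = 0.638 (0.0794) and LY96 0.605 (0.089). Without the 2 piglets farthest from the median of the partner gene, r was 0.629 with MYD88, 0.607 with IRAK4 and 0.645 with LY96. On values less their group means it was 0.645, 0.436 and 0.556, as a description without a test.

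MYD88 with IRAK4 had r = 0.578 (adjusted p 0.0864; rho = 0.552, adjusted 0.143), and 0.233 on values less their group means. TLR4 with LY96, its partner in the LPS receptor, had r = 0.562 (permutation test, adjusted p 0.0864) and rho = 0.491 (0.222). Without the 2 piglets farthest from the median of TLR4, r was 0.203. Leaving out extreme values narrows the range of TLR4, which lowers r by itself. The drop therefore cannot show whether the relation rests on those piglets. On values less their group means r was 0.507. TLR4 and CD14 had r = 0.262 (adjusted p 0.558).

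**Figure D4:**
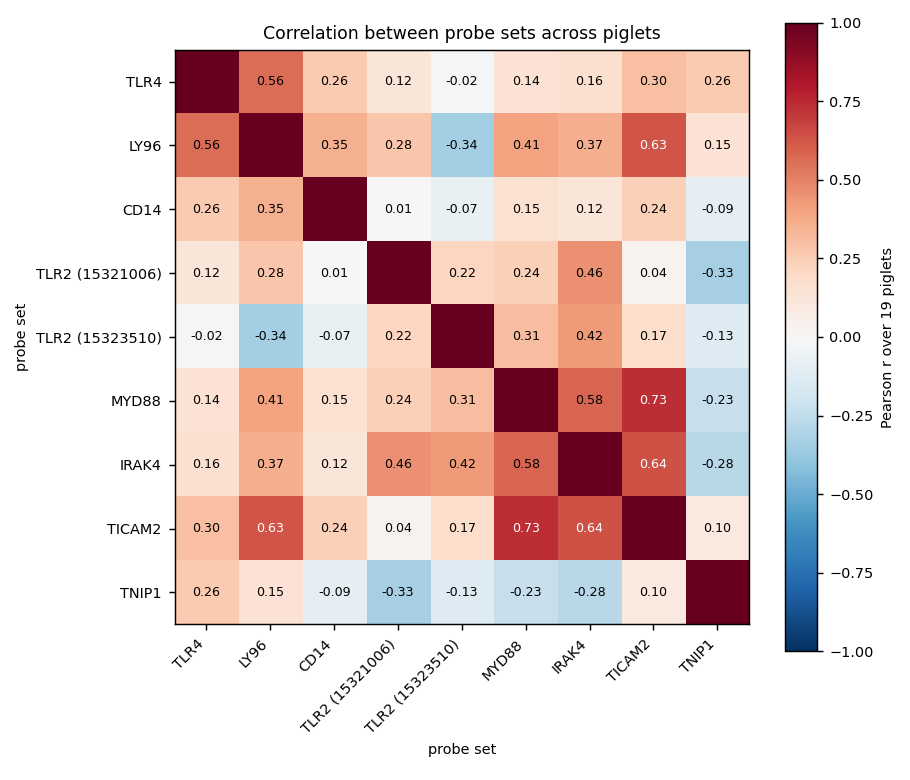
Pearson correlation between each pair of the 9 probe sets over the 19 piglets, with red for positive and blue for negative values. The highest values join TICAM2 with MYD88 (0.73), IRAK4 (0.64) and LY96 (0.63), while the 2 TLR2 probe sets are at 0.22 with each other.

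The genes whose pattern over the 19 arrays was most like each probe set were ranked by Pearson r among the other tested probe sets with a single symbol, as a description without a test. TICAM2 was closest to CXCL11 (r = 0.86), CMPK2 (0.838) and LGALS9 (0.838), all interferon-stimulated genes. By rank these relations were weaker (rho = 0.687, 0.724 and 0.715). MYD88 was closest to ELF1 (r = 0.883), RGL1 (r = 0.844, but rho = 0.567) and SDCBP, and IRAK4 to PDE12 (r = 0.835), DDX3X and GNG11. TLR4 was closest to PLEK (0.812), which codes for a protein of leucocytes and platelets, then SYNGR1 and the leucocyte activation marker CD69 (0.773).

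LY96 was closest to ACSL5 (0.764), TMSB10 and GLO1. For CD14 they were DCTN5 (0.795), the adhesion molecule ICAM1 (0.77) and LIN37, and for TNIP1 LAMTOR2 (0.814), UBL5 and NXN. TLR2 probe set 15321006 was closest to LOC100520074 (0.763), SEC22C and C13H3orf58, and probe set 15323510 to CAMK1D (0.755), ALG8 and C12H17orf75, so the 2 share none. All 19 arrays enter these values, so group differences and array quality are part of them.

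Of 72 other genes of the Toll-like route, 48 were measured, and after maternal LPS 31 of them were lower and 17 higher over the diets (median -0.06, beside 0.0070 over all tested). At an unadjusted limma p under 0.05, 7 were lower and 2 higher (all probe sets 3.59% and 3.37%), and 0 passed after adjustment. Among 9 other receptors and chaperones, TLR3, the sensor of double-stranded RNA, had the largest difference, -0.94 ± 0.182 (adjusted p 0.116; -1.32 in fish oil, -1.13 in microalgae, -0.38 in control). TLR7, a sensor of single-stranded RNA, had -0.29 ± 0.126 (adjusted p 0.694), with 0.24 in fish oil and -0.84 in microalgae. Of 15 other adaptors and kinases 9 were lower, and 1 had a p under 0.05, TAB3 of the TAK1 complex at -0.37 ± 0.155.

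Among 10 transcription factors of the route, NFKB2, which codes for the p100 precursor, was higher by 0.23 ± 0.0861. Its difference lay mainly in microalgae offspring (0.57, beside 0.07 in fish oil and 0.05 in control). Of 14 inhibitors 9 were lower. TRAFD1 (-0.43 ± 0.111), which curbs TRAF signalling, BCL6 (-0.35 ± 0.149), a transcriptional repressor, ATF3 (-0.34 ± 0.154), a repressor of Toll-like target genes in mice, and the deubiquitinase CYLD (-0.28 ± 0.129) had a p under 0.05, as did TNIP2, a relative of TNIP1, which was higher at 0.37 ± 0.137. Adjusted p for these ran from 0.394 (TRAFD1) to 0.697 (CYLD and ATF3).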

How the data were processed

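Each column of deposited values holds the log2 signals of 1 piglet. That the base is 2 follows from the size of the values alone. Total RNA was labelled with the WT PLUS kit, per the labels' protocols. Transcriptome Analysis Console 4.0 is listed in the submitters' processing notes, and how signals were summarized and normalized is not stated there. Values were used as deposited. A single gene symbol is annotated to 13157 of the 27558 probe sets, several to 523 and none to 13878.

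Probe sets in the lowest 25% by mean, under 3.23, were filtered out (6890). The other 20668 entered 1 limma fit (limma 3.58.1 in R 4.3.3) of 6 group means, with the variance prior following intensity and with 13 residual and 4.62 prior degrees of freedom. The difference over the diets is the mean of the 3 differences within diets. Tests are two-sided, adjustment is by Benjamini-Hochberg over the 20668, and the threshold is 0.05. Values of p without the word adjusted, exact or permutation are unadjusted limma values. The ± beside a difference is the model's SE. The p-values measure the spread between piglets of different sows. Fits were tested on simulated data.

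The genes, lists and comparisons were chosen with earlier results of these data known. All probe sets of the 8 genes are named, as are other genes of the Toll-like route with a p under 0.05 for maternal LPS over the diets, the 3 with the smallest p in each diet comparison, and the 3 genes most like each probe set. Where another gene had several probe sets, its brightest was taken. Alternatives were no filter, a filter on the lowest 50%, median centring, quantile normalization, array weights, a fit with no intensity trend, an additive model, leaving out each piglet, and the array spread, macrophage markers or neutrophil and monocyte markers as covariates.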

Additional observations from a re-analysis of the deposited data

Results flagged for a closer look

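LY96 was flagged because its maternal LPS difference was unlike between diets at an unadjusted p under 0.05, though not after adjustment. The difference between offspring of LPS-treated and saline-treated sows in fish oil offspring departed from that in control offspring by -1.13 log2, and in microalgae offspring by -1.32 log2, in limma's test of the difference itself (p 0.00316 and 0.00253, adjusted over all probe sets 1.0 and 0.858). The values share the control groups.

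One value stood far from its group. TLR2 probe set 15323510 read 2.87 log2 in piglet 10, a fish oil piglet after maternal LPS, while the others of that group read 3.72, 3.70 and 3.85. Chance marks about 1 in 20 such groups, and 18 groups of 4 were examined, so 1 of this kind is about what chance gives. The probe set lies near the filter on low signals.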

How the results depend on the processing

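No paired analysis was possible because each piglet number occurs once, so groups share no replicate number. Of 81 differences of the 9 probe sets in 9 comparisons, none had an adjusted p under 0.05 in any of up to 30 settings. Those larger than their SE, or taken over the diets, numbered 51, and 8 of their 1497 settings turned the sign, all for TLR4: over the diets without piglets 6, 7, 12 and 14 (leaving out 1 piglet gave -0.19 to 0.12) and without both piglets 6 and 24 (0.023, chosen after seeing the data), in control with neutrophil markers as covariate (-0.015) and without piglet 21 (-0.014 to 0.60), and in the microalgae interaction without piglet 7 (-0.93 to 0.017). Of the 30 smaller ones 22 changed sign in some setting. With the array spread as covariate, the maternal LPS difference in microalgae was -0.63 (limma p 0.0219) for IRAK4 and -0.51 (limma p 0.0206) for MYD88. For LY96 it was -0.64 (limma p 0.0453) and for TICAM2 -0.46 (limma p 0.165). IRAK4 and MYD88 over the diets, and both LY96 interactions, kept a p under 0.05 in every setting run. The differences within diets did not, without 1 piglet: IRAK4 reached p 0.0641 in fish oil and 0.0536 in microalgae, and MYD88 0.168 in microalgae. Probe sets called over the whole array for maternal LPS, 2 here, were 0 with no filter, quantile normalization, an additive model or without both piglets, 4 with the array spread, 9 with array weights, and 0 to 12 leaving out 1 piglet.

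Counts of the 9 at p under 0.05 moved as follows. For the fish oil interaction (1) they were 2 with quantile normalization, the array spread or without both piglets and 3 with array weights. The microalgae interaction (1) had 2 with median centring or array weights, microalgae against control (1) had 0 with median centring or without both piglets, and maternal LPS in control (1) had 3 with array weights and 2 with the array spread or without both piglets. Leaving out 1 piglet gave 2 to 3 for maternal LPS over the diets, 0 to 1 in control, 2 to 4 in fish oil, 1 to 4 in microalgae, 1 to 2 for each interaction and for fish oil against microalgae, 0 to 1 for microalgae against control and 0 for fish oil against control. The cause was not tested. The number of arrays limits all of these, and signals near 3.23 limit TLR2 probe set 15323510.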

Other observations

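Other genes of the Toll-like route are given here by maternal diet. Of the 48 measured, TLR7 and TLR9, sensors of nucleic acids in endosomes, had the smallest p for fish oil against control (0.47 ± 0.145 and 0.31 ± 0.119), followed by IKBKG, the regulatory subunit of the IKK complex (-0.27 ± 0.149). For microalgae against control they were ECSIT (-0.31 ± 0.139), TLR9 (0.21 ± 0.134) and CD180 (0.42 ± 0.311), a TLR4-like receptor of B cells. Between fish oil and microalgae they were TLR7 (0.37 ± 0.155), RNF216 (-0.34 ± 0.158), a ubiquitin ligase, and TLR1 (-0.32 ± 0.151). All had an adjusted p of 1.0 in limma.

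Over the 19 piglets TLR4 and the neutrophil and monocyte score had r = 0.631 (permutation p 0.00355, adjusted over 27 relations 0.0959; rho = 0.554, adjusted 0.432), and TLR4 and the macrophage score r = 0.47 (adjusted p 0.283; rho = 0.393). With the neutrophil and monocyte score, r of TLR4 without the 2 piglets farthest from the median score was 0.489. On values less their group means it was 0.606. With the macrophage score these were 0.33 and 0.245. None of the 27 relations passed 0.05 after adjustment.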
